A study of Mus musculus with 52 samples.

Results

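The 10 genes described here encode proteins of the skeletal muscle fibre: Myh1, Myh2, Myh4, Mylpf, Tnnt3, Tnni2, Actn3, Atp2a1, Pvalb and Ckm. They were taken by gene name from the authors' tables of all tissues, which together hold 39144 genes. The series compares wild-type mice with mice that lack the Tug1 long noncoding RNA locus (Tug1-/-) and lists 52 samples, all male. Of these, 46 lie behind the tables: 3 wild-type and 3 Tug1-/- samples each of eyes, heart, liver, spleen and primary mouse embryonic fibroblasts (MEFs), 3 wild-type and 2 Tug1-/- samples of prostate, and 11 testes samples, of which 4 were wild-type, 4 Tug1-/- and 3 rescue. Brain means come from libraries that lie outside the series, and 6 testes samples of F1 hybrid mice were not analysed here.

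In the Tug1_tm1.1Vlcg allele a lacZ reporter takes the place of the gene body, and the promoter and first exon remain. The mice were of a mixed C57BL/6J and 129S6 background. In the tissues of the series other than testes, both genotypes were at the N3 backcross generation to C57BL/6J and free of the Neo cassette. The labels do not cover the brain mice. In testes the labels give "no Neo" for wild type and "Neo, LacZ" for Tug1-/- and rescue, so by the labels the cassette and the deletion cannot be told apart there. The study's methods describe removal of the cassette from the line, which differs from these labels, and the point could not be settled here. Rescue mice were homozygous for the same allele and carried tg(Tug1), a Tug1 cDNA under a Tet-On promoter, together with CAGs-rtTA3, a ubiquitously expressed activator that works in the presence of doxycycline. They were kept on a doxycycline diet, and for the other testes groups no such diet is given in the sources used here, so the diet and the transgene cannot be told apart. The labels give no ages. MEFs were grown from littermate embryos. Tug1 RNA itself, the check of genotype, was between 0.0825% and 2.21% of the wild-type mean in the Tug1-/- mean of the 8 tissues, with the highest share in testes. In rescue testes it was 1.60 TPM against 40.1 TPM in wild type.

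A skeletal muscle fibre contracts when myosin heavy chains pull on actin filaments, and calcium released from the sarcoplasmic reticulum starts the cycle by binding to troponin. Fast fibres use their own isoforms of nearly every part of this apparatus, and the heart uses others. Myh1, Myh2 and Myh4 encode the fast heavy chains of type IIX, IIA and IIB fibres. Mylpf is the fast regulatory light chain, Tnnt3 and Tnni2 are the fast troponins T and I, and Actn3 is the alpha-actinin of the fast fibre Z-disc. Atp2a1 is the calcium pump that refills the reticulum of fast fibres, Pvalb is a calcium buffer that speeds relaxation, and Ckm is the muscle creatine kinase that regenerates ATP. Ckm is also a main enzyme of heart muscle, and Pvalb also marks a class of inhibitory neurons, so neither is particular to skeletal muscle. None of the 10 is a defining gene of testes, prostate, liver, spleen or fibroblasts.

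In the GRCm38 coordinates of the tables, the 3 heavy chain genes follow each other on the plus strand of chromosome 11: Myh2 at chr11:67171027-67197517, Myh1 at chr11:67200052-67224575 and Myh4 at chr11:67238029-67260446. They span 89.4 kb and lie 63.5 Mb from Tug1, which is on the minus strand at chr11:3639785-3649673. Of the others, 5 are on chromosome 7: Ckm at chr7:19404776-19422841, Atp2a1 at chr7:126445858-126463108, Mylpf at chr7:127208890-127214298, Tnni2 at chr7:142441808-142444410 and Tnnt3 at chr7:142498836-142516009. Pvalb is at chr15:78191114-78206400 and Actn3 at chr19:4861223-4877909. On the opposite strand, 5 genes overlap a member: Myhas overlaps Myh1, 9430073C21Rik overlaps Myh2, A930016O22Rik overlaps Ckm, Prr33 overlaps Tnnt3 and Rabep2 overlaps Atp2a1. The strand setting of the count is not given in the sources used here, so reads from such a pair may not be told apart. The heavy chains are close paralogs, and only uniquely mapped reads were counted, so a level can depend on how much of a transcript is unique.

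The 150 bases before the transcription start are shown for 6 members. They cover the heavy chain cluster, a light chain, the calcium pump and the creatine kinase, so that the shared and the private letters of their promoters can be seen. RefSeq promoter sequence on GRCm38.p6 matched 7 of the 10 members, and Pvalb is the matched member that is not printed. Capitals mark E-boxes (CANNTG, the core site of the MyoD family), TATA boxes (TATAAA), CArG boxes (the site of serum response factor), MEF2 motifs and MEF3 motifs, searched on both strands. None of the printed matches overlaps another.
Myh2, chr11:67170877-67171026, plus strand: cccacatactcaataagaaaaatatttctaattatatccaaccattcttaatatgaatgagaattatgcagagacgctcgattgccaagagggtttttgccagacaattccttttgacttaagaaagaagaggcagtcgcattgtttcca
Myh1, chr11:67199952-67200101, plus strand: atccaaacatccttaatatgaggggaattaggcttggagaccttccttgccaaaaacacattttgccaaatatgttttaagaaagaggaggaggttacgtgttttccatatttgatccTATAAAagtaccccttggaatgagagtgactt
Myh4, chr11:67237662-67237811, plus strand: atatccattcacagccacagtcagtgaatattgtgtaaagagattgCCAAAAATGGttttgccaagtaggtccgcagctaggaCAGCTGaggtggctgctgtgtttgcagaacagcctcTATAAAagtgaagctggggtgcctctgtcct
Mylpf, chr7:127211458-127211607, plus strand: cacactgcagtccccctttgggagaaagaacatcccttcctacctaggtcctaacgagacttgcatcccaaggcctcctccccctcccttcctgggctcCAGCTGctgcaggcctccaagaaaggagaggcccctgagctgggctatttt
Atp2a1, chr7:126463074-126463223, minus strand: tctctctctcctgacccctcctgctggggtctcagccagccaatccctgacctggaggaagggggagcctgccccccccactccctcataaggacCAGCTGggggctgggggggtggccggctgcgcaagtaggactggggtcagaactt
Ckm, chr7:19410944-19411093, plus strand: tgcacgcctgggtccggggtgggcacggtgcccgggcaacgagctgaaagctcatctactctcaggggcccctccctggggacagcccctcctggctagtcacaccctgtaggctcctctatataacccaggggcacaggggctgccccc
Myh4, Mylpf and Atp2a1 each held 1 E-box in this window, and in all 3 genes it read CAGCTG. It began 67 bases before the start in Myh4, 51 in Mylpf and 55 in Atp2a1. Pvalb, not printed, held an E-box with other letters, CATGTG, 111 bases before its start number 2. It held no match before its start number 1. Myh1 and Myh4 each held a TATA box, 32 and 31 bases before the start, and Myh4 also held a CArG box, 104 bases before it. Myh2 and Ckm held no match in this window. Of 32851 promoter windows of this length in the RefSeq table, 47.7% held an E-box, 7.57% a TATA box, 0.916% a CArG box, 1.67% a MEF2 motif and 2.03% a MEF3 motif. An E-box in a window of this size is thus common, and a match is a description of the letters only. The share of windows with the letters CAGCTG was not counted.

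Levels are the authors' group means in TPM, which state how large a part of all transcripts a gene takes up once its length is corrected for and which allow levels of different genes to be compared. The tables hold no value of a single sample for any of these genes, so the spread between samples is unknown, no test could be made, and a mean cannot show whether 1 library carries it. A ratio is given as log2 of (Tug1-/- TPM + 0.1) over (wild-type TPM + 0.1). A gene was counted as past the fold limit when this ratio was at least 2-fold either way with at least 1 TPM in either group.

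The members were eye transcripts above all, with Ckm the exception. Of the 10, 9 had their highest wild-type mean in eyes, and Ckm had it in heart at 1005 TPM. In wild-type eyes the levels ran from 99.8 TPM for Myh2 to 1502 TPM for Tnnt3 with a median of 785 TPM. Together they made up 0.797% of all transcripts there. In heart, Ckm aside, they lay between 2.43 and 31.5 TPM in wild type. In wild-type testes, Actn3 (9.89 TPM), Mylpf (2.91 TPM) and Myh1 (1.24 TPM) were above 1 TPM and the other members were below it. The extraocular muscles that move the eye are made of striated fibres. In bulk tissue, fewer cells of a type and less RNA per cell cannot be told apart.

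**Figure D1:**
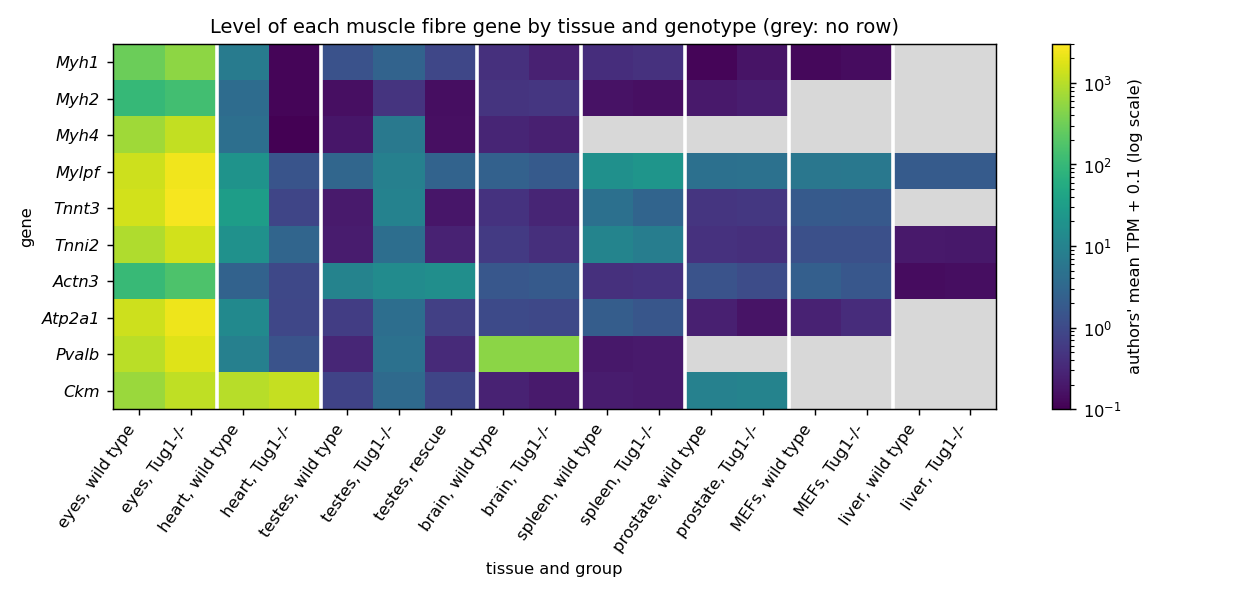
Colour gives the authors' mean TPM plus 0.1, on a log scale, for each of the 10 genes (rows) in each tissue and group (columns); grey marks a gene with no row in that tissue's table. Eyes hold the highest levels for all genes but Ckm, which was at 1005 TPM in wild-type heart, and Pvalb stands out in brain at 503 TPM.

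All 10 members were higher in Tug1-/- eyes than in wild-type eyes, by 1.30-fold to 1.76-fold, and none reached 2-fold. Mean levels went from 295 TPM in wild type to 520 TPM in Tug1-/- for Myh1, the IIX heavy chain. Myh4, the IIB heavy chain, had 686 and 1152 TPM. Myh2, the IIA heavy chain, had 99.8 and 130 TPM, the smallest ratio of the 10 at 1.30-fold. The other 9 members lay in a narrow band, from 1.62-fold for Actn3 (104 and 169 TPM) to 1.76-fold for Ckm (630 and 1112 TPM).

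The thin filament and light chain genes followed the same ratio. Tnnt3 had 1502 TPM in wild type against 2627 TPM in Tug1-/-, and Tnni2 had 883 and 1503 TPM. Mylpf had 1384 and 2380 TPM. The calcium handling genes were alike, with 1341 and 2305 TPM for Atp2a1 and 1041 and 1789 TPM for Pvalb. Summed over the 10 genes, the mean went from 7967 to 13687 TPM, or from 0.797% to 1.37% of all transcripts. These means rest on many reads: the authors' mean normalised count over the eye libraries was 5481 for Actn3, the lowest, and 88219 for Atp2a1, the highest.

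The median log2 ratio of the members in eyes was 0.78, against -0.11 over the 19709 genes of at least 1 TPM. Of those genes, 27.7% were higher in Tug1-/- and 2.13% were past the 2-fold limit in either direction, and 0 of 10 members were. At a limit of 1.5-fold the count was 9 of 10 members, all but Myh2, where 7.87% of all genes were past it in either direction, and 1.66% of all genes had a log2 ratio at or above the members' median. The median gene was shifted by -0.10 between the groups, and after scaling to a median ratio of 1 the members' log2 ratios lay between 0.49 and 0.92, all below 2-fold.

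Other muscle genes in eyes were higher too. All 20 of a list of other fast fibre genes were higher, none past 2-fold, with a median log2 ratio of 0.74. They included Acta1, the skeletal actin (1277 and 2464 TPM), Myl1, the fast essential light chain (653 and 1066 TPM), and Eno3, the muscle enolase (717 and 1143 TPM). Myh13, the heavy chain known from extraocular muscle and named here after its values were seen, had 146 and 256 TPM. All 12 genes that couple excitation to calcium release were higher, with a median of 0.62, Cacna1s, the voltage sensor, having 45.9 and 78.6 TPM. All 7 neuromuscular junction genes were higher with a median of 0.37, and 1 of them, Chrnd, the acetylcholine receptor delta subunit, was past 2-fold at 1.62 and 3.39 TPM. Slow fibre genes were higher for 8 of 9, with a median of 0.69.

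Of 5 developmental and early muscle genes, 3 were higher and 2 lower, none past 2-fold, with a median of 0.11. Actc1, an actin of heart and developing muscle, had 244 and 448 TPM, and Myh8, the perinatal heavy chain, had 12.5 and 21.4 TPM, both near the members' ratio. Other genes departed from it. Myh3, the embryonic heavy chain, had 134 TPM in wild type against 144 TPM in Tug1-/-, a log2 ratio of 0.11. Chrnb1, the acetylcholine receptor beta subunit, had 25.7 and 27.6 TPM. Tnnt1, the slow troponin T, had 63.7 and 71.0 TPM. Of the myogenic regulators, all 8 were higher with a median of 0.42. Myf6, which mature fibres keep expressing, had 23.6 and 41.6 TPM, while Mef2c, which many cell types express, had 41.5 and 44.4 TPM.

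Markers of other eye tissues moved as well. All 6 adipocyte genes were past 2-fold and higher in Tug1-/- eyes, with a median log2 ratio of 1.63 and a summed level of 356 TPM in wild type against 1136 TPM in Tug1-/-. Cfd, the adipocyte complement factor adipsin, had 89.2 and 492 TPM. Of 6 cornea and conjunctiva genes, 4 were lower and the summed level was 7441 and 4685 TPM. The 8 photoreceptor genes were all lower with a median of -0.19, and the 8 lens genes had a median of -0.05. Smooth muscle genes had a median of 0.10. The part of these other tissues in the muscle gene result was not tested.

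**Figure D2:**
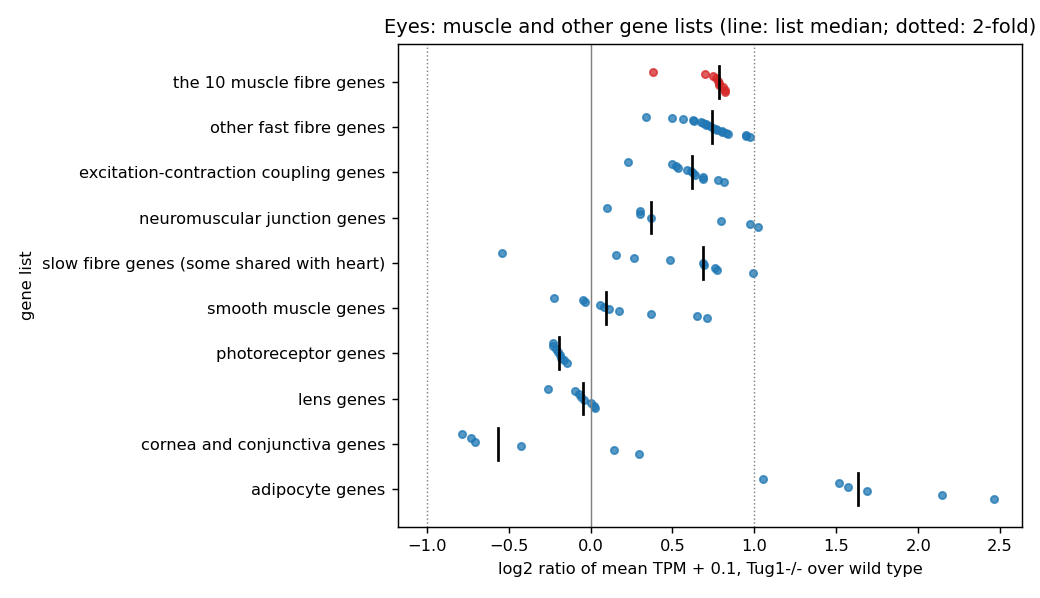
Each point is 1 gene and gives, on the horizontal axis, its log2 ratio of mean TPM + 0.1 in eyes, Tug1-/- over wild type; rows are gene lists, black lines list medians, dotted lines 2-fold. The 10 muscle fibre genes (red) cluster at a median of 0.78 with Myh2 apart at 0.38, and adipocyte genes lie further right, at a median of 1.63.

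Proportions among the heavy chains were nearly the same in both genotypes in eyes. Myh4 made up 63.5% of the sum of Myh1, Myh2 and Myh4 in wild type and 63.9% in Tug1-/-. Myh1 made up 27.3% and 28.8%, and Myh2 made up 9.23% and 7.23%. The ratio of Tnnt3 to Ckm was 2.38 in wild type and 2.36 in Tug1-/-.

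In heart the direction was opposite, and 9 of the 10 members were lower in Tug1-/- and past the fold limit, where 1.05% of 14004 genes were past it in that direction. Ckm alone was not. Among those 14004 genes, ordered from the most lowered, 6 of the first 20 were members. The median log2 ratio of the members was -3.83, against 0.10 over all genes. The median gene was itself shifted by 0.11, and scaling to it left 9 members past the limit.

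The heavy chains were close to 0 in the Tug1-/- mean of heart. Myh1 had 7.22 TPM in wild type against 0.0141 TPM in Tug1-/-. Myh2 had 3.78 and 0.0169 TPM. Myh4 had 4.24 TPM in wild type and was listed at 0 in Tug1-/-. The log2 ratios on the TPM + 0.1 scale were -6.00 for Myh1 and -5.05 for Myh2, and both depend on the added 0.1 because the lower level is far under it.

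The other fast fibre members kept a residual level. Tnnt3 had 31.5 TPM in wild-type heart and 0.763 TPM in Tug1-/- heart (log2 ratio -5.19). Mylpf had 20.2 and 1.34 TPM (-3.82), and Atp2a1 had 13.0 and 0.813 TPM (-3.84). Tnni2 had 18.2 and 2.78 TPM (-2.67), and Pvalb had 8.64 and 1.30 TPM (-2.64). Actn3 had the smallest ratio of the lowered members, with 2.43 and 0.835 TPM (-1.43). Ckm, which heart muscle expresses itself, had 1005 and 1199 TPM, a log2 ratio of 0.25. The authors' mean normalised count over the heart libraries was between 95.0 for Actn3 and 512 for Tnnt3 among the 9 lowered members.

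**Figure D3:**
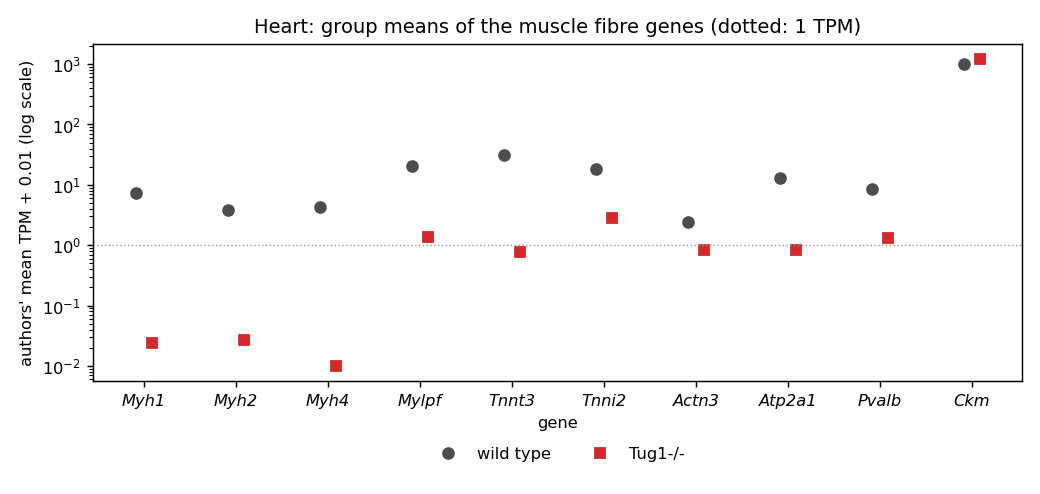
Mean TPM plus 0.01 in heart, on a log scale, for each of the 10 genes in wild type (circles) and Tug1-/- (squares). The wild-type mean is above the Tug1-/- mean for all genes but Ckm, and the 3 heavy chains lie far below 1 TPM in Tug1-/-.

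Genes that heart muscle itself expresses were not lowered in this way. The 10 cardiac muscle genes had a median log2 ratio of 0.31, and Myh6, the atrial and adult mouse ventricular heavy chain, had 4692 TPM in wild type against 5894 TPM in Tug1-/-. Of the 20 other fast fibre genes, 4 were lower and past the limit, and these were named after their values were seen. Tnnc2, the fast troponin C, had 1.74 TPM in wild type and was listed at 0 in Tug1-/-, and Mybpc1, a myosin binding protein, had 2.90 and 0.0800 TPM. Myoz1 had 1.87 and 0.327 TPM, and Neb, the giant thin filament protein nebulin, had 1.27 and 0.537 TPM. The glycolytic genes of the same list that heart shares, Eno3 and Pgam2, had 1259 and 1465 TPM and 905 and 1063 TPM. Of 12 coupling genes, 5 were higher and 7 lower, and 8 were of at least 1 TPM. Of these, 1 was lower and past the limit, Jsrp1, with 1.53 and 0.677 TPM. Ryr1, named after its values were seen, was below 1 TPM in both groups, with 0.526 and 0.0430 TPM.

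Genes of other tissues were lower in the Tug1-/- heart mean at the same time. All 6 adipocyte genes were lower, 3 of them past the limit, with a summed level of 296 TPM in wild type against 157 TPM in Tug1-/-. All 5 genes of the spleen list were lower, 3 past the limit, from a sum of 40.6 TPM to 18.8 TPM. Scgb1a1, the secretory protein of airway club cells, and Bpifa1, a secreted protein of the upper airways, were named after their values were seen. Scgb1a1 had 26.3 TPM in wild type against 0.0995 TPM in Tug1-/-, and Bpifa1 had 11.0 TPM and was listed at 0. Their part in the muscle gene result was not tested.

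In testes, where the levels were low, the members were higher in Tug1-/-, and the rescue means lay near wild type. All 10 were higher in Tug1-/- than in wild type, where 61.7% of 22378 genes of at least 1 TPM were higher. Of the members 7 were past the fold limit, where 0.894% of those genes were past it in that direction. With a minimum of 5 TPM, 3 of 4 members were past the limit, Tnnt3, Myh4 and Mylpf, where 0.46% of all genes were. These 3 reached 5 TPM only in Tug1-/-. The minimum thus admitted them through the group where they were higher, and the count is no separate support. The median log2 ratio was 2.67 over the 9 members of at least 1 TPM and 2.39 over all 10, against 0.03 over all genes. Of the 9, only Actn3, Mylpf and Myh1 reached 1 TPM in wild type, and the others were counted through their Tug1-/- mean. Among the members past the 2-fold limit, Mylpf alone reached 1 TPM in wild type. Summed over the 10, the means were 15.8 TPM in wild type, 57.7 TPM in Tug1-/- and 21.3 TPM in rescue.

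Tnnt3 was at 0.113 TPM in wild type, 9.48 TPM in Tug1-/- and 0.0899 TPM in rescue. Myh4 was at 0.0876, 6.25 and 0.0526 TPM in the same order. Tnni2 was at 0.120, 4.12 and 0.168 TPM. These 3 had the largest log2 ratios of Tug1-/- over wild type among the members, 5.50, 5.08 and 4.26. These ratios depend on the added 0.1, since the wild-type means are near it or below it: with 1 TPM added they were 3.24, 2.74 and 2.19, and Pvalb, at 2.24, passed Tnni2.

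The calcium and energy genes were also highest in Tug1-/-. Pvalb had 0.200 TPM in wild type, 4.67 TPM in Tug1-/- and 0.247 TPM in rescue. Atp2a1 had 0.539, 3.98 and 0.602 TPM, and Ckm had 0.700, 3.37 and 0.772 TPM. For each of these the Tug1-/- mean stood apart and the other means were close to each other. Mylpf, which wild-type testes expressed at 2.91 TPM, had 8.70 TPM in Tug1-/- and 2.62 TPM in rescue.

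The remaining 3 members were not past the limit. Myh1 had 1.24 TPM in wild type, 2.57 TPM in Tug1-/- and 0.798 TPM in rescue, a log2 ratio of 0.99 that lies just under 2-fold because of the added 0.1 TPM. The means as printed differ 2.07-fold, and with 0.01 TPM added the log2 ratio is 1.04, past the limit. The number of members past the limit thus depends on the added value. The share of all genes past it with 0.01 TPM added is not given here. Myh2 stayed below 1 TPM in every group, at 0.0500, 0.364 and 0.0486 TPM. Actn3 had another order, with 9.89 TPM in wild type, 14.2 TPM in Tug1-/- and 16.0 TPM in rescue.

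Against Tug1-/-, 8 of the 10 members were lower in rescue and past the limit, where 1.47% of 22180 genes were past it in that direction, and the median log2 ratio was -2.54 over the 9 members of at least 1 TPM. In rescue, only Actn3 and Mylpf reached 1 TPM, and the others of the 9 were counted through their Tug1-/- mean. With a minimum of 5 TPM the same 3 of 4 members were past the limit, where 0.65% of all genes were. These 3 again reached 5 TPM only in Tug1-/-, so the count is no separate support. Against wild type, 0 of 3 members of at least 1 TPM were past the limit in either direction, where 3.77% of 22393 genes were. At 1.5-fold, 1 of the 3, Actn3, was past it, where 7.93% of genes were. Leaving Actn3 aside, the rescue means were between 60.0% and 140% of the wild-type means. The comparisons share groups, so the means stand side by side and are not counted as separate evidence. The tables give no read counts for testes, so the reads behind these low values are unknown.

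**Figure D4:**
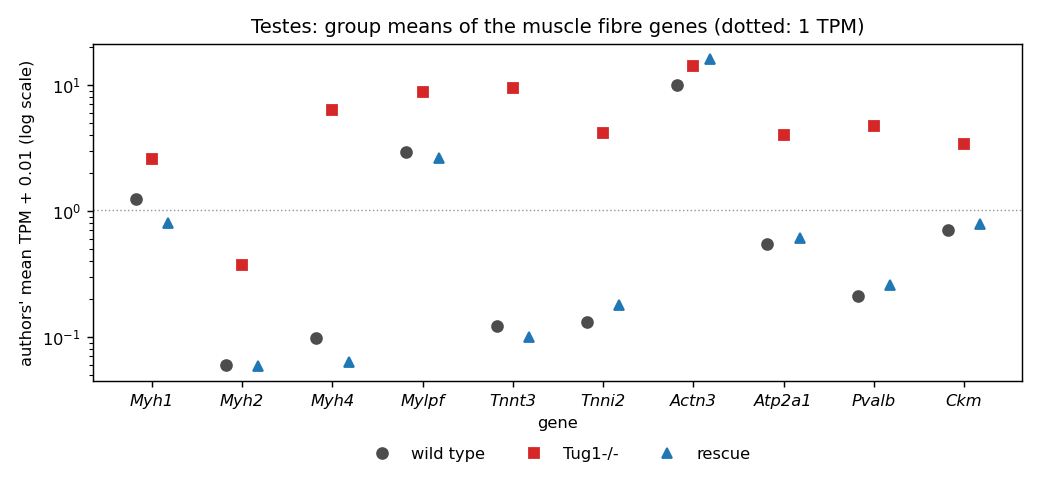
Mean TPM plus 0.01 in testes, on a log scale, for each of the 10 genes in wild type (circles), Tug1-/- (squares) and rescue (triangles). The Tug1-/- mean is the highest of the 3 for every gene but Actn3, and for Tnnt3 it is 9.48 TPM against 0.113 TPM in wild type.

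Other muscle genes in testes were split. Of the 20 other fast fibre genes, 15 were higher and 5 lower in Tug1-/-. At least 1 TPM in either group was reached by 15 of the 20, and 4 were higher and past the limit. Acta1 had 0.380 TPM in wild type, 14.8 TPM in Tug1-/- and 0.276 TPM in rescue, and Myl1 had 0.713, 4.43 and 0.556 TPM. Mybpc2, the fast myosin binding protein, had 0.350, 1.49 and 0.316 TPM, and Myoz1 had 0.434, 1.20 and 0.433 TPM. Of 9 slow fibre genes, 2 were higher and past the limit but stayed high in rescue: Tnni1, the slow troponin I, had 0.294, 1.03 and 0.945 TPM, and Myoz2 had 1.02, 2.59 and 2.43 TPM. No coupling gene (7 of 12 were of at least 1 TPM), junction gene (5 of 7) or myogenic regulator (6 of 8 had a row and 2 were of at least 1 TPM) was past the limit.

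Of the other tissue markers in testes, 2 of 6 adipocyte genes were higher and past the limit, Cfd (5.54, 13.4 and 8.12 TPM in wild type, Tug1-/- and rescue) and Car3 (2.74, 9.98 and 4.40 TPM), while Adipoq had 23.7, 23.3 and 22.8 TPM. Smooth muscle genes were higher for 9 of 10, none past the limit, where 61.7% of all genes of at least 1 TPM were higher. Their sum was 578 TPM in wild type against 535 TPM in Tug1-/-, and Actg2, the enteric actin and the 1 lower gene, made up 440 and 352 TPM of it. The other 9 summed to 138 TPM in wild type, 183 TPM in Tug1-/- and 155 TPM in rescue, and among them Des, the intermediate filament that striated muscle also uses, had 4.09, 8.12 and 4.62 TPM. Markers of lens, seminal vesicle and cornea were past the limit too. Cryaa had 0.217, 2.06 and 4.23 TPM and Svs6 had 0.767, 1.81 and 2.39 TPM, both higher in Tug1-/- and in rescue. Krt5 had 3.16, 1.14 and 0.0405 TPM, and Krt14 had 2.92 and 0.863 TPM and was listed at 0 in rescue, both lower. The 7 testes markers had a median log2 ratio of 0.03, and 1 of them, Insl3, the hormone of Leydig cells, was past the limit with 56.9, 144 and 65.5 TPM. The part of these markers in the muscle gene result was not tested.

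The mixture of heavy chains differed between the tissues in which they were seen. In Tug1-/- testes, Myh4 made up 68.1% of the sum of the 3, Myh1 28.0% and Myh2 3.96%, which is close in value to the eyes. In wild-type heart, Myh4 made up 27.8%, Myh1 47.4% and Myh2 24.8%. Taken as the excess over the other genotype, Myh4 was 27.9% of the heavy chains in heart and 79.0% in testes. With no spread between samples these differences could not be tested.

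**Figure D5:**
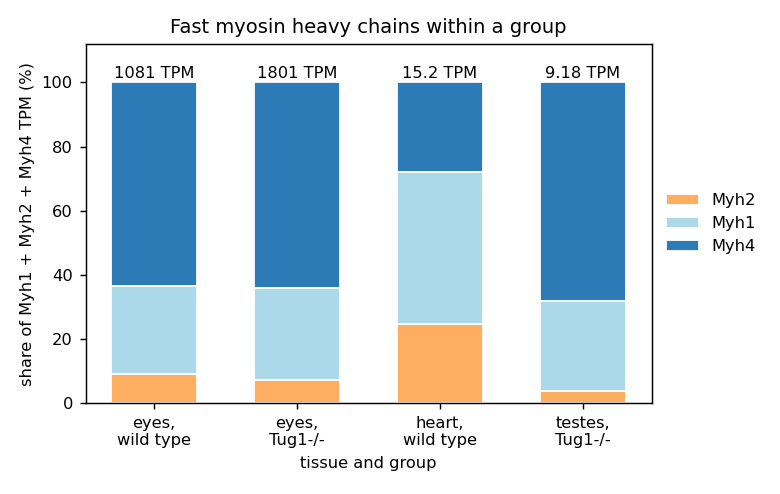
Stacked bars give the share of Myh2, Myh1 and Myh4 in their summed mean TPM, in percent, for the 4 groups with a sum of at least 5 TPM; the sum stands above each bar. Myh4 holds 63.5% and 63.9% in the eye groups and 68.1% in Tug1-/- testes, but 27.8% in wild-type heart.

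Set against the level in wild-type eyes, the excess in heart and testes amounted to a small share of it. In heart, the amount by which wild type exceeded Tug1-/- was between 0.618% (Myh4) and 3.77% (Myh2) of the eye level for the 9 members other than Ckm, with a median of 1.53%. In testes, the amount by which Tug1-/- exceeded wild type was between 0.257% (Atp2a1) and 0.898% (Myh4), except for Actn3 at 4.14%, with a median of 0.440%.

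In prostate, MEFs, liver, spleen and brain no member was past the limit, and, Pvalb in brain aside, the highest of their means was 21.5 TPM, for Mylpf in spleen. In prostate 8 of 10 members had a row, and 3 of them reached 1 TPM. Ckm had 9.36 TPM in wild type against 10.0 TPM in Tug1-/-, Mylpf had 4.46 and 4.59 TPM, and Actn3 had 1.32 and 1.01 TPM. The other 5 stayed below 0.5 TPM. The share of all genes past the limit in either direction was 3.34% in prostate. All 6 adipocyte genes were past it there, with a sum of 132 TPM in wild type against 637 TPM in Tug1-/-. Of the seminal vesicle list, Svs2 (10039 and 30716 TPM), Svs5 (9363 and 27896 TPM) and Pate4 (2346 and 7743 TPM) were past it too. Svs4 was higher but under the limit, and Svs3a and Svs6 were lower. The members followed neither list.

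In spleen 9 members had a row, 4 of at least 1 TPM. Mylpf had 17.6 TPM in wild type against 21.5 TPM in Tug1-/-, whereas Tnni2 had 10.5 and 7.69 TPM, Tnnt3 4.41 and 2.71 TPM and Atp2a1 2.01 and 1.48 TPM. The members thus lay on both sides of equality in spleen, where 3.55% of all genes were past the limit in either direction. At 1.5-fold, 1 of the 4, Tnnt3, was past it, where 10.5% of genes were. The median gene was shifted by -0.11 there.

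In brain, Pvalb had 503 TPM in wild type against 505 TPM in Tug1-/-, and the other 9 members were at or below 2.40 TPM, with Mylpf (2.40 and 1.78 TPM) and Actn3 (1.54 and 1.74 TPM) the others above 1 TPM. Past the limit in either direction were 2.90% of all genes in brain. In MEFs 6 members had a row. Mylpf had 5.95 and 6.08 TPM, Actn3 2.18 and 1.53 TPM, Tnnt3 1.78 and 1.67 TPM and Tnni2 1.16 and 1.12 TPM, and 2.38% of all genes were past the limit. In liver 3 members had a row, and Mylpf, at 1.80 TPM in both genotypes, was the one above 1 TPM, with 1.90% of all genes past the limit. Over these 5 tissues, 15 values of members were of at least 1 TPM, 7 higher and 8 lower in Tug1-/-, with log2 ratios between -0.68 and 0.29.

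Across the 17 group means, the genes whose levels followed the members most closely were picked by Pearson's correlation of log2(TPM + 0.1) with the mean over the members, a member with no row in a tissue being taken as 0 TPM, among 16396 genes that are not members, reach 1 TPM in some group and have a row in every tissue. The points share libraries within a tissue and are dominated by the contrast of eyes with the rest. Myoz1, a Z-disc protein of fast fibres, came first with r = 0.97. It was followed by Rom1, a photoreceptor disc protein, at 0.96, Uckl1os at 0.94, Ahrr at 0.94, the photoreceptor transporter Abca4 at 0.94, Ube4bos1 at 0.93, the M-band protein Myom3 at 0.92, the lens crystallins Cryba4 and Crybb3 at 0.92, and 6430562O15Rik at 0.91. Of these 10 genes, only Myoz1 and Myom3 are known as muscle genes. The pool was limited to genes with a row in every tissue, and in liver 3 of the members themselves had one. Acta1, Myl1, Myh13, Tnnc2 and Mybpc1 had no liver row and could not enter. The list therefore does not tell how closely muscle genes as a whole followed the members. Within the members, Atp2a1 followed the mean of the other 9 most closely, with r = 0.99, and Ckm least, with r = 0.68.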

How the data were processed

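RNA was extracted from mouse tissues and MEFs, made into TruSeq RNA v2 libraries and sequenced. The authors aligned reads to GRCm38 with STAR and GENCODE vM16, counted uniquely mapped reads with featureCounts, and left out genes for which no replicate reached 3 reads. Per the labels, CASAVA 1.8.2 was among the tools. The deposited tables give each group's mean in TPM, as the authors computed it, and all levels here are that mean. For tissues other than testes the authors also deposited a mean normalised count over all libraries of a tissue, a coverage signal from DESeq2, used as depth (summed over genes, 17573700 in brain and between 38667000 and 48341800 elsewhere). The number of reads per sample is not analysed here. The tables also hold the authors' own fold changes, statistics, p-values and calls, which were not used.

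From the TPM means, log2 ratios with 0.1 TPM added were computed for every gene, with a limit of 2-fold and at least 1 TPM in either group. No test was made, since no value of a single sample was read. Genes named are the members, the 10 genes most like them, the 3 genes of highest level in each marker list and those past the limit in eyes, prostate or testes, of which those bearing on a result are given; further genes are said to be named after their values were seen. The members, lists and limits were chosen with earlier results of these data known. Ratios and correlations were tested on simulated data. Promoter motifs were searched in RefSeq sequence of GRCm38.p6. Work was done in Python with numpy, pandas, scipy and matplotlib. Alternatives were other added values, minimums and limits, 2 rescalings of TPM, and Spearman's correlation or a tissue left out for likeness.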

Additional observations from a re-analysis of the deposited data

How the results depend on the processing

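No paired analysis was possible because the tables hold group means only, and for the same reason no replicate could be left out. A median was taken as unmoved within 0.1 on the log2 scale and a count within 1.5 times. Of 132 recomputed medians and counts, 107 were unmoved and 25 moved, none with a reversal of a median past 2-fold. Of 264 recomputed log2 ratios of single members, 189 were unmoved and 75 moved by over 0.1: 36 of 66 with 1 TPM added, 23 with 0.01 TPM added, 16 after scaling and 0 with muscle genes taken out. With 0.01 TPM added, the median log2 ratio was -3.95 in heart, 2.86 in testes and -2.70 for rescue over Tug1-/-, and with 1 TPM added these were -2.37, 1.69 and -1.64. With no minimum the medians were 2.39 in testes, -2.27 for rescue over Tug1-/-, 0.055 for rescue over wild type, -0.31 in brain and -0.016 in spleen. With a minimum of 5 TPM they were 3.31 in testes, -3.54 for rescue over Tug1-/-, 0.68 for rescue over wild type and -0.077 in spleen. Past the limit were 3 members in testes and the same 3 in rescue over Tug1-/-, since fewer genes were counted. Those 3 reached 5 TPM only in Tug1-/-. Scaling to the median gene gave 0.89 in eyes and -0.33 in spleen. At a limit of 1.5-fold, 9 members were past it in eyes, 1 in spleen and 1 in rescue over wild type, where 7.87%, 10.5% and 7.93% of all genes were. Taking muscle genes out of the TPM total moved none of the 20 medians and counts. Of the 10 genes most like the members, 1 was also among the first 10 by Spearman's correlation, 5 with brain left out and 3 with heart left out, so that list depends on the measure. Depth limits the low values: a group mean under 0.1 TPM says little about the size of a ratio.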

Other observations

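In prostate, some genes of the fast fibre list stood far above the members. Acta1, the skeletal actin, had 478 TPM in both genotypes and Tmod4, a thin filament capping protein, had 174 TPM in wild type against 155 TPM in Tug1-/-, where Ckm, the highest member, had 9.36 and 10.0 TPM. Nrap had 38.5 and 26.7 TPM. Smooth muscle genes were abundant in the same tissue, with 2325 and 2467 TPM for Acta2 and 948 and 916 TPM for Myh11. None of the 8 genes of the fast fibre list of at least 1 TPM was past 2-fold there, and Myl1, below that level, had 0.202 and 0.578 TPM.

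In testes, the muscle isoforms of the glycolytic enzymes were at high levels in every group and did not follow the members. Pgam2, the muscle phosphoglycerate mutase, had 1765 TPM in wild type, 1743 TPM in Tug1-/- and 1898 TPM in rescue, and Eno3 had 98.4, 102 and 103 TPM. Chrne, the adult acetylcholine receptor subunit, had 70.1, 73.5 and 73.2 TPM.

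Of the opposite-strand neighbours in eyes, Myhas had 6.55 TPM in wild type against 10.6 TPM in Tug1-/- and Prr33 had 18.9 and 29.1 TPM, both higher as were Myh1 and Tnnt3, which they overlap. Rabep2 had 13.3 and 13.5 TPM and A930016O22Rik had 6.99 and 6.45 TPM, apart from the ratios of Atp2a1 and Ckm. 9430073C21Rik had 2.35 and 2.47 TPM, where Myh2, which it overlaps, was 1.30-fold higher. In heart, Prr33 had 11.6 and 15.2 TPM while Tnnt3 was lower in Tug1-/-.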
